A study of Homo sapiens with 33 samples.

Results

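The tiles described here are the short oligonucleotides of the CTCF pool that were cut from 2 housekeeping mRNAs, GAPDH and PPIA. They were chosen by name: every tile of the pool whose name is GAPDH or PPIA followed by a number, which gave 20 GAPDH tiles and 30 PPIA tiles, 50 of the 985 tiles in the pool. The cells were HEK293T, an established line derived from human embryonic kidney, which overexpressed FLAG-GFP-CTCF and received the pool by transfection. They were collected after 48 hours and crosslinked in 0.1% formaldehyde (10 minutes). Both groups of libraries came from such cells and both carried the tagged protein: 3 were made from the RNA recovered with an antibody against FLAG (the immunoprecipitate) and 3 from Input. The tiles were transcribed from transfected oligonucleotides, the CTCF was added and tagged, and no precipitate from cells without it was among the CTCF-pool groups. A difference between immunoprecipitate and Input was therefore not tested against recovery without the tagged protein.

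GAPDH encodes glyceraldehyde-3-phosphate dehydrogenase, an enzyme of glycolysis, and PPIA encodes cyclophilin A, a peptidyl-prolyl isomerase that helps proteins fold and is the cellular target of cyclosporin. Both mRNAs are abundant in most cells and are often used as references in expression assays. CTCF is a zinc-finger protein that binds DNA at insulators and loop anchors and has also been described as binding RNA. In a tiled pool each piece of an RNA is recovered on its own, so that stretches of 1 RNA can be compared with each other. Each tile was present with 24 barcodes, short tags that mark separate oligonucleotides of 1 tile. The libraries were amplified from priming sites shared by the oligonucleotides, per the labels, so the values are those of the tiles and not of the cells' own GAPDH and PPIA mRNA. Tiles are named by mRNA and number, and their sequences, barcode sequences and positions in the mRNA were not used here. Neighbours and runs below are by tile number alone, and whether consecutive tiles share sequence was not examined.

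The immunoprecipitate libraries held 44570966 to 58020403 reads and the Input libraries 35234255 to 51341630. Of the 50 member tiles, 49 passed the filter on low counts, among 977 tiles of the pool. PPIA_19 did not pass, with 16 reads over the 3 immunoprecipitate libraries and 17 over the 3 Input libraries. Values are CPM (counts per library size after TMM scaling, times 1000000), and every replicate number below is the one in the labels. Libraries of the same number deviated together: over the 977 tiles, the deviations from the group means of the immunoprecipitate and Input libraries correlated at 0.70, 0.68 and 0.29 in replicates 1, 2 and 3. For this reason each result is given in the unpaired edgeR fit and, where it changes the call, in the paired fit, which has the replicate number as a block. The pairing was less sure for replicate 3: its immunoprecipitate library correlated at 0.57 with Input replicate 2, more than with Input replicate 3. Deviations from a group mean cancel within the group, so those of replicate 1 also enter the coefficients of replicates 2 and 3. Replicate 1 stood apart in both fractions, and calls depended on it in the unpaired fit: without any 1 library of replicate 2 or 3, edgeR called 0 tiles of the pool, although 146 to 250 had an unadjusted p under 0.05. Without both libraries of replicate 1 it called 452.

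GAPDH tiles together took a larger share of the reads in the FLAG-GFP-CTCF immunoprecipitate than in Input, within every replicate. The tiles held 3.04%, 2.28% and 2.34% of the immunoprecipitate reads in replicates 1, 2 and 3, against 2.36%, 1.58% and 1.61% of the Input reads (95% Wilson intervals of at most 0.00501 percentage points to either side, for counting error alone). Every immunoprecipitate share was higher than the Input share of the same replicate, by 1.29-fold, 1.44-fold and 1.45-fold, but the Input share of replicate 1 lay above the immunoprecipitate shares of replicates 2 and 3. The median log2 fold change of the 20 tiles was 0.53, against 0.00 over all 977 tiles tested, and 18 of the 20 tiles had a value above 0, against 490 of 977. By replicate, the median log2 ratio of immunoprecipitate to Input was 0.48, 0.59 and 0.57 over the GAPDH tiles, against -0.04, 0.00 and 0.01 over all tiles. TMM scaling puts the middle of the pool near 0. These values are thus relative to the pool and are not set against a measured level without recovery. The unpaired median moved with replicate 1, to 0.30 without its immunoprecipitate library and to 0.87 without its Input library, while it was 0.58 without both and 0.57 in the paired fit.

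In the unpaired fit 1 of 20 GAPDH tiles rose and none fell (edgeR, adjusted p under 0.05), where 2.87% of all tiles were called higher and 1.94% lower (4.81% in all). In the paired fit 12 of 20 rose and none fell, where 15.5% of all tiles were called higher and 12.2% lower. DESeq2 called 7 GAPDH tiles higher and none lower, where it called 10.4% of all tiles higher and 7.88% lower. No GAPDH tile had a negative value with an unadjusted p under 0.05 in any of these 3 fits. Of all 977 tiles, 126, 206 and 132 had such values in the unpaired fit, the paired fit and DESeq2. The paired count moved with the pairs kept: it was 13 higher and 1 lower without replicate 1, 5 higher without replicate 2 and 0 without replicate 3, where 11 tiles still had an unadjusted p under 0.05. Of all tiles, 24.9% were higher and 23.6% lower in that fit without replicate 1, and 6.25% higher and 4.41% lower without replicate 2. Without replicate 3 it was 0%, and 267 of 976 tiles had an unadjusted p under 0.05. The immunoprecipitate libraries all lay above the Input libraries in 9 GAPDH tiles, which was also the case in 18.1% of all tiles. The ratio was above 0 in all 3 pairs in 15 GAPDH tiles, and in 30.9% of all tiles.

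The GAPDH tile that rose in both fits was GAPDH_2. It stood at 1324, 1577 and 1375 CPM in the immunoprecipitate, against 853, 456 and 556 CPM in Input. All 3 immunoprecipitate values lay above all 3 Input values, and replicate 1 had both the lowest immunoprecipitate value and the highest Input value. The log2 fold change was 1.20 ± 0.24 (SE, n = 3 against 3; adjusted p = 0.0400 in edgeR), and 1.24 ± 0.22 in the paired fit (adjusted p = 0.0117). In the unpaired fit its adjusted p reached 0.233 when 1 library was left out.

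Its neighbour GAPDH_1 stood at 819, 697 and 580.3 CPM in the immunoprecipitate, against 528, 218 and 405 CPM in Input, with no overlap between the fractions. It did not pass the unpaired fit (0.86 ± 0.33, adjusted p = 0.146) and rose in the paired fit (0.94 ± 0.27, adjusted p = 0.0428). GAPDH_3 stood at 1124, 1171 and 1165 CPM, against 939, 821 and 776 CPM in Input, again without overlap and with little spread inside each fraction. It too rose in the paired fit alone (0.45 ± 0.13, adjusted p = 0.0387, against 0.45 ± 0.14 and adjusted p = 0.0938 in the unpaired fit). With them, GAPDH_2 formed the highest run of 3 consecutive GAPDH tiles, with a mean log2 fold change of 0.84, and all 3 of its tiles were higher in the paired fit. The mean ratio of this run was 0.51 in replicate 1, 1.33 in replicate 2 and 0.80 in replicate 3, so the pairs differed in size.

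The GAPDH tile of highest number, GAPDH_20, had the next largest value of the mRNA. It stood at 2110.1, 1843 and 1583 CPM in the immunoprecipitate, against 1237, 633 and 764 CPM in Input, and the fractions did not overlap. At a log2 fold change of 1.07 ± 0.26 it missed the threshold in the unpaired fit (adjusted p = 0.0608) and passed in the paired fit (1.12 ± 0.16, adjusted p = 0.00912). With scaling by library size alone it was also called in the unpaired fit.

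Tiles 10 to 14 were all higher in the paired fit, the longest unbroken run of calls in the mRNA. GAPDH_10 stood at 2016, 1052 and 1144 CPM, against 994, 696 and 676 CPM in Input, and its paired log2 fold change was 0.79 ± 0.13 (adjusted p = 0.0109). GAPDH_11 stood at 2381, 1919 and 1605 CPM, against 1549.6, 1197 and 1169 CPM in Input (0.59 ± 0.11, adjusted p = 0.0142). In both, replicate 1 was the highest library of its fraction, and the 2 fractions did not overlap. GAPDH_12 stood at 1328, 1716 and 1818 CPM, against 1171, 757 and 838 CPM in Input (0.83 ± 0.21, adjusted p = 0.0284). GAPDH_13 stood at 1607, 1323 and 1412 CPM, against 1111, 574 and 799.8 CPM in Input (0.85 ± 0.15, adjusted p = 0.0124). These 2 tiles also did not overlap between fractions, but their pairs differed in size: the ratio of GAPDH_12 was 0.18 in replicate 1, 1.18 in replicate 2 and 1.12 in replicate 3. GAPDH_14, at 3155, 1616 and 1902 CPM against 2349, 1162 and 1198 CPM in Input, did overlap, with the Input library of replicate 1 above 2 immunoprecipitate libraries, while its ratios of 0.43, 0.48 and 0.67 were close to each other (0.52 ± 0.11, adjusted p = 0.0202). None of the 5 tiles passed the unpaired fit, where the values were 0.83 ± 0.29 for GAPDH_10 (adjusted p = 0.122), 0.59 ± 0.19 for GAPDH_11 (adjusted p = 0.102), 0.81 ± 0.21 for GAPDH_12 (adjusted p = 0.0660), 0.81 ± 0.24 for GAPDH_13 (adjusted p = 0.0841) and 0.50 ± 0.35 for GAPDH_14 (adjusted p = 0.382).

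Tiles 6 to 8 made up a run with smaller and even ratios. GAPDH_6 stood at 1644, 956 and 980.3 CPM in the immunoprecipitate, against 1294, 562 and 679 CPM in Input (0.55 ± 0.13 in the paired fit, adjusted p = 0.0251). GAPDH_7 stood at 1131, 749 and 834 CPM, against 700.0, 502 and 559 CPM in Input (0.62 ± 0.14, adjusted p = 0.0230). GAPDH_8 stood at 2383, 1188 and 1297 CPM, against 1481, 959 and 880.5 CPM in Input (0.52 ± 0.12, adjusted p = 0.0248). The fractions overlapped in GAPDH_6 and GAPDH_8 but not in GAPDH_7. The mean ratio of the run was 0.58, 0.55 and 0.56 in replicates 1, 2 and 3, the closest accord between pairs of any run of 3 GAPDH tiles. In the unpaired fit, where the difference between replicates counts as spread, the values were 0.50 ± 0.36 for GAPDH_6 (adjusted p = 0.395), 0.62 ± 0.22 for GAPDH_7 (adjusted p = 0.124) and 0.55 ± 0.32 for GAPDH_8 (adjusted p = 0.289).

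The GAPDH tiles that passed neither fit were 4, 5, 9 and 15 to 19. GAPDH_4 and GAPDH_5 had positive ratios in all 3 pairs but small values, 0.24 and 0.31 (adjusted p = 0.191 and 0.0698 in the paired fit). GAPDH_9 had the widest spread of the well-counted tiles, at 1794, 540.0 and 681 CPM in the immunoprecipitate against 1344, 609.8 and 517 CPM in Input, and a value of 0.29 ± 0.54. GAPDH_15 had a value of 0.23 ± 0.26, with a ratio of 0.66 in replicate 1 and of -0.11 and -0.06 in replicates 2 and 3.

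The lowest GAPDH tiles followed next to it. GAPDH_16 stood at 2656, 1358 and 1472 CPM in the immunoprecipitate, against 2400.1, 1939 and 2021 CPM in Input (-0.21 ± 0.27, adjusted p = 0.642 in edgeR). It was the most abundant GAPDH tile in Input, where its libraries averaged 2120.1 ± 246 CPM (SD, n = 3). GAPDH_17 stood at 909.8, 450.4 and 492 CPM, against 966, 621 and 690.1 CPM in Input (-0.30 ± 0.31, adjusted p = 0.567), and its ratio was below 0 in every pair. With replicate 1 left out of the unpaired fit, both were called lower, GAPDH_16 at -0.49 (adjusted p = 0.00568) and GAPDH_17 at -0.48 (adjusted p = 0.0475), in a fit that called 21.9% of all tiles lower and 24.4% higher. That fit also called GAPDH_5 higher (0.34, adjusted p = 0.0464). In the paired fit without replicate 1, GAPDH_16 was called lower and GAPDH_17 was not (adjusted p = 0.0619).

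GAPDH_18 and GAPDH_19 were scarce, so their ratios are poorly measured. GAPDH_18 had 1293 reads over the immunoprecipitate libraries and 825 over the Input libraries, the fewest of the mRNA, and stood at 6.62, 14.0 and 2.42 CPM against 20.9, 0.699 and 1.21 CPM in Input. Its highest Input value belonged to replicate 1, and its ratios of -1.65, 4.24 and 0.98 pointed both ways. The run with the lowest mean, GAPDH_16 to GAPDH_18 at -0.17, holds this tile, and its ratio was -0.53, 1.09 and 0.01 in replicates 1, 2 and 3. GAPDH_19 stood at 96.5, 52.3 and 88.6 CPM, against 54.2, 23.6 and 37.6 CPM in Input, with ratios above 0 in all 3 pairs (1.04 ± 0.56, adjusted p = 0.257). The median log2 fold change was 0.53 with these 2 tiles and 0.53 without them.

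PPIA tiles together also took a larger share of the immunoprecipitate reads. Of 29 tiles, 3 passed the unpaired test and 10 the paired one, where 2.87% and 15.5% of all tiles were called higher. PPIA tiles held 3.82%, 3.64% and 3.69% of the immunoprecipitate reads in replicates 1, 2 and 3, against 3.26%, 2.90% and 2.96% of the Input reads. These shares did not overlap between the fractions, and the immunoprecipitate share was 1.17-fold, 1.26-fold and 1.25-fold higher than the Input share of the same replicate. The median log2 fold change of the 29 tiles tested was 0.26, against 0.00 over all 977 tiles. A value above 0 was found in 23 PPIA tiles, against 490 of 977. By replicate the median ratio was 0.25, 0.37 and 0.28, against -0.04, 0.00 and 0.01 over all tiles. The unpaired median was 0.39 without the Input library of replicate 1, 0.21 without its immunoprecipitate library and 0.32 in the paired fit.

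Of the 29 PPIA tiles, 3 rose and none fell in the unpaired fit, and 10 rose and none fell in the paired fit. Of all tiles, 2.87% were called higher and 1.94% lower in the unpaired fit, and 15.5% higher and 12.2% lower in the paired fit. DESeq2 called 7 higher and none lower, where it called 10.4% of all tiles higher and 7.88% lower. PPIA tiles with negative values and an unadjusted p under 0.05 numbered 0 in the unpaired fit, 2 in the paired fit and 0 in DESeq2. Of all 977 tiles, the numbers were 126, 206 and 132. The paired count was 14 higher and 3 lower without replicate 1, 6 higher without replicate 2 and 0 without replicate 3. Of all tiles, 24.9% were higher and 23.6% lower without replicate 1, and 6.25% higher and 4.41% lower without replicate 2. Without replicate 3, 0% were called, while 10 PPIA tiles and 267 of all 976 tiles had an unadjusted p under 0.05. The fractions did not overlap in 9 tiles that were higher in the immunoprecipitate, as in 18.1% of all tiles, and in 1 that was lower, as in 15.7% of all tiles. In 17 PPIA tiles the ratio was above 0 in all 3 pairs, which was also the case in 30.9% of all tiles.

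The tiles of highest number carried the clearest PPIA values. PPIA_29 stood at 2318, 2719 and 2602 CPM in the immunoprecipitate, against 1115, 1345 and 1448 CPM in Input. The lowest immunoprecipitate library thus lay well above the highest Input library, and the ratios of 1.06, 1.02 and 0.85 were close to each other. Its log2 fold change was 0.97 ± 0.15 (SE, n = 3 against 3; adjusted p = 0.0360 in edgeR), and it passed the paired fit as well (0.97 ± 0.11, adjusted p = 0.00912). PPIA_30 stood at 1527, 1514 and 1472 CPM, against 1083, 773 and 852 CPM in Input (0.74 ± 0.16, adjusted p = 0.0464). Its 3 immunoprecipitate values were nearly equal, and all lay above Input. PPIA_28 stood at 2015, 1229.5 and 1586 CPM, against 1236, 687 and 691 CPM in Input. It overlapped by a small margin, since the lowest immunoprecipitate library was just under the Input library of replicate 1, and it rose in the paired fit alone (0.91 ± 0.13, adjusted p = 0.00912, against 0.89 ± 0.29 and adjusted p = 0.101 in the unpaired fit). PPIA_28 to PPIA_30 formed the highest run of 3, with a mean log2 fold change of 0.86 and mean ratios of 0.75, 0.94 and 0.94 in replicates 1, 2 and 3.

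PPIA_3 was the other PPIA tile to rise in both fits. It stood at 1012, 1231 and 1377 CPM in the immunoprecipitate, against 728, 582 and 609.6 CPM in Input (0.92 ± 0.18, adjusted p = 0.0386). All 3 immunoprecipitate values were above Input, and the ratio of replicate 1, 0.48, was smaller than those of replicates 2 and 3, 1.08 and 1.18. Its neighbours differed from it: PPIA_2 had a value of 0.18 and PPIA_4 one of 0.13, neither of which passed either fit. Of the 3 calls in the unpaired fit, each was lost when any 1 library of replicate 2 or 3 was left out, with adjusted p up to 0.233 for PPIA_3, 0.204 for PPIA_29 and 0.274 for PPIA_30.

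The other PPIA tiles that rose in the paired fit were not neighbours by number, except for 27, which adjoins 28. PPIA_10 stood at 1297, 962 and 977 CPM, against 833, 427 and 492 CPM in Input (0.93 ± 0.15, adjusted p = 0.0109). PPIA_16 stood at 1421, 969.8 and 1147 CPM, against 925, 602 and 617 CPM in Input (0.73 ± 0.13, adjusted p = 0.0112). Both stood without overlap between fractions, and both missed the threshold in the unpaired fit, at 0.89 ± 0.28 for PPIA_10 (adjusted p = 0.0947) and 0.72 ± 0.23 for PPIA_16 (adjusted p = 0.0976). PPIA_25 stood at 1925, 1257 and 1221 CPM, against 1028, 843 and 1082 CPM in Input (0.55 ± 0.16, adjusted p = 0.0417). PPIA_6 stood at 2080.2, 2057 and 1869.7 CPM, against 1618, 1446 and 1521 CPM in Input (0.39 ± 0.11, adjusted p = 0.0428). These 2 tiles did not overlap either, and PPIA_6 had the smallest rise of any PPIA tile called. Their unpaired values were 0.58 ± 0.21 for PPIA_25 (adjusted p = 0.137) and 0.39 ± 0.13 for PPIA_6 (adjusted p = 0.0989).

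PPIA_1 and PPIA_27 overlapped between fractions. PPIA_1 stood at 1021, 914 and 867 CPM, against 882, 502 and 551 CPM in Input (0.58 ± 0.17, adjusted p = 0.0461), with the Input library of replicate 1 above 1 immunoprecipitate library. PPIA_27 stood at 1134, 684 and 831 CPM, against 849, 471 and 487 CPM in Input (0.58 ± 0.15, adjusted p = 0.0331). In both, the immunoprecipitate was above Input within every pair. Their unpaired values were 0.53 ± 0.24 for PPIA_1 (adjusted p = 0.192) and 0.55 ± 0.30 for PPIA_27 (adjusted p = 0.259).

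The PPIA tiles without a call lay on both sides of 0. PPIA_24 had a value of 0.72 and no overlap between fractions, but ratios of 0.03, 1.35 and 0.85 (adjusted p = 0.0868 in the paired fit). PPIA_17, at 0.32, also had no overlap. PPIA_15 (0.41), PPIA_9 (0.39), PPIA_20 (0.26), PPIA_22 (0.24), PPIA_26 (0.21), PPIA_7 (0.17) and PPIA_21 (0.14) had positive values. PPIA_12 (0.07), PPIA_8 (0.05) and PPIA_11 (-0.00) were near 0. PPIA_8 was the most abundant PPIA tile in Input, and stood at 2814, 2452 and 2123 CPM in the immunoprecipitate, against 2584, 2295 and 2268 CPM in Input, so its 3 pairs measured a difference near 0 with many reads.

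The lowest well-counted PPIA tile was PPIA_5. It stood at 1450.1, 1388 and 966 CPM in the immunoprecipitate, against 1569.7, 1736 and 1736 CPM in Input, and all 3 immunoprecipitate values lay below Input (-0.41 ± 0.18, adjusted p = 0.189 in edgeR, 0.0872 in the paired fit). PPIA_14 at -0.31 and PPIA_13 at -0.17 also had negative values. With replicate 1 left out of the unpaired fit, PPIA_5 (-0.56, adjusted p = 0.0179), PPIA_14 (-0.41, adjusted p = 0.0214) and PPIA_13 (-0.35, adjusted p = 0.0452) were called lower, in a fit that called 21.9% of all tiles lower and 24.4% higher. The same fit called higher PPIA_24 (1.09, adjusted p = 0.00182), PPIA_9 (0.83, adjusted p = 0.00591), PPIA_20 (0.53, adjusted p = 0.0197), PPIA_17 (0.37, adjusted p = 0.0461) and PPIA_15 (0.47, adjusted p = 0.0479), none of which was called by edgeR with all 3 replicates. Of these 8 tiles, PPIA_15 was not called in the paired fit without replicate 1 (adjusted p = 0.0663). Tiles 11 to 13 and 12 to 14 thus lay near or below 0 on average, at -0.03 and -0.14, between the higher tiles 10 and 16.

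Besides PPIA_19, the scarce PPIA tiles were PPIA_18 and PPIA_23. PPIA_18 had 313 reads in the immunoprecipitate libraries and 265 in Input, and a value of -0.08 ± 1.27. PPIA_23, the lowest PPIA tile by value, stood at 12.3, 5.75 and 0.497 CPM in the immunoprecipitate, against 10.7, 4.85 and 27.3 CPM in Input (-1.21 ± 1.32, adjusted p = 0.581). The negative value came with replicate 3: the ratios were 0.19, 0.24 and -5.67, and without replicate 3 the value was 0.22. It also set the run with the lowest mean, PPIA_21 to PPIA_23 at -0.28, whose ratios were 0.25, 0.13 and -1.76.

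The barcodes of a tile share its sequence and its libraries, so they are no replicates, but they show whether a tile's value came from few oligonucleotides. Of the 24 barcodes, those with at least 30 reads over the 6 libraries were counted: 468 of 480 for GAPDH and 670 of 720 for PPIA. In GAPDH_2, 23 of 24 barcodes had more scaled reads in the 3 immunoprecipitate libraries together than in Input, and 13 did so within each of the 3 pairs. In GAPDH_20 these counts were 24 and 14 of 24. In PPIA_29 they were 23 and 13 of 23, in PPIA_30 23 and 10 of 24, and in PPIA_3 21 and 8 of 24. In these 5 tiles most barcodes were thus higher in the summed libraries, while single barcodes varied between pairs. The tiles were picked by the sum of these same barcodes, so the summed direction gives no separate support for the rise.

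The most-read barcode of GAPDH_2, barcode 22, stood at 65.5, 167 and 112 CPM in the immunoprecipitate, against 84.0, 26.7 and 42.9 CPM in Input. It was lower than Input in replicate 1 and higher in the others. Barcode 3 of PPIA_29 stood at 189, 136 and 160 CPM, against 102, 111 and 112 CPM in Input, without overlap, while barcode 10 of the same tile had no read in any library. Barcode 13 of PPIA_3 stood at 81.7, 187 and 98.4 CPM, against 63.6, 27.9 and 62.9 CPM in Input. Barcode 22 of PPIA_30 stood at 88.6, 185 and 131 CPM, against 106, 93.0 and 117 CPM in Input, and so was lower in replicate 1. The least-read barcodes were barcode 4 of GAPDH_2, with 4030 reads over the 6 libraries, barcode 2 of PPIA_3, with 5312, and barcode 4 of PPIA_30, with 7282. In GAPDH_2 no barcode held more than 8.12% of the tile's reads.

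In the well-counted tiles at the low end, also picked by their summed counts, most barcodes went the other way. In PPIA_5, 3 of 24 barcodes had more scaled reads in the immunoprecipitate libraries together, and 0 did so in each pair. In GAPDH_16 these counts were 6 and 1 of 24, in GAPDH_17 they were 8 and 2 of 23, and in PPIA_14 they were 5 and 1 of 23. In the scarce PPIA_23, 16 barcodes had 30 reads and 1 barcode held 19.9% of all reads of the tile. In GAPDH_18 the corresponding values were 14 barcodes and 29.0%. Of these barcodes, 3 of 16 in PPIA_23 and 10 of 14 in GAPDH_18 had more scaled reads in the immunoprecipitate libraries together.

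Over all their barcodes, 32.7% of GAPDH and 23.4% of PPIA barcodes were higher than Input in each of the 3 pairs, against 13.6% of all barcodes in the pool. Tested one by one over the 22488 barcodes that passed the filter, 0 were called in either fit, so 0% of the pool's barcodes and none of 452 GAPDH and 648 PPIA barcodes passed (edgeR). Of these, 68 GAPDH and 84 PPIA barcodes had an unadjusted p under 0.05 in the unpaired fit, where 7.92% of all barcodes did, and 67 and 69 in the paired fit, where 7.56% did.

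Levels of GAPDH and PPIA tiles in replicate 1 were displaced from those in replicates 2 and 3, in both fractions. In the immunoprecipitate 16 of 20 GAPDH tiles were most abundant in the library of replicate 1, against 43.5% of all tiles. Their median level in it was 1.40 times the mean of replicates 2 and 3, against 0.99 times over all tiles. In Input all 20 GAPDH tiles were most abundant in replicate 1, against 46.9% of all tiles. The median there was 1.61 times, against 1.02 times over all tiles. For PPIA the counts were 21 of 29 in the immunoprecipitate and 19 of 29 in Input, with medians of 1.23 and 1.17 times. The medians in immunoprecipitate and Input were 1.43 and 1.46 times for WRAP53, and 0.91 and 0.94 times for TSIX. The unpaired fit counts a displacement shared by both fractions as spread, and the paired fit does not. What set replicate 1 apart was not tested.

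The profile along the tile numbers was most alike between replicates 2 and 3, and how alike depended on the scarce tiles. Over all 20 GAPDH tiles, the ratios of replicates 2 and 3 correlated at Pearson's r = 0.68, those of replicates 1 and 2 at -0.52 and those of replicates 1 and 3 at 0.09. Over the 18 GAPDH tiles with an Input mean of at least 100 CPM these were 0.84, 0.47 and 0.50. Over all 29 PPIA tiles tested they were 0.39, 0.38 and 0.21, and over the 27 with that Input mean 0.86, 0.35 and 0.43. Over the 977 tiles of the pool they were 0.60, 0.28 and 0.07, and over the 919 with that Input mean 0.81, 0.46 and 0.36. Each ratio comes from its own 2 libraries, but tiles of 1 pool share those libraries, so the coefficients are a description. Among tiles with that Input mean, the log2 fold change also fell with the log2 Input mean. Pearson's r was -0.51 for GAPDH, -0.48 for PPIA and -0.23 for the pool. Over all tiles tested it was -0.06, 0.33 and -0.17. Input is also part of the fold change, and the source of this relation was not tested.

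GAPDH was not alone at the high end of the pool: WRAP53 had about the same median. The median log2 fold change was 0.53 for GAPDH and 0.26 for PPIA, against 0.53 for the 28 tiles of WRAP53, 0.40 for the 26 of SRA1, 0.27 for the 87 of MBP, which encodes myelin basic protein, 0.22 for the 21 of JPX, 0.14 for the 52 of FIRRE, 0.03 for the 243 of XIST and -0.17 for the 471 of TSIX. In the paired fit 60.0% of GAPDH and 34.5% of PPIA tiles were higher, against 60.7% of WRAP53, 38.1% of JPX, 34.6% of SRA1, 13 of 52 FIRRE, 23.0% of MBP, 16.0% of XIST and 4.88% of TSIX tiles. No tile of GAPDH, PPIA, SRA1 or WRAP53 was called lower there. The ratio was above 0 in all 3 pairs in 15 of 20 GAPDH and 17 of 29 PPIA tiles. This held for 22 of 28 WRAP53, 18 of 26 SRA1, 13 of 21 JPX, 42 of 87 MBP and 23 of 52 FIRRE tiles. For XIST it was 71 of 243 and for TSIX 81 of 471. TSIX and XIST make up most of the remaining pool, so the background over all tiles is mainly theirs. Over the 928 tiles that are neither GAPDH nor PPIA the median was -0.02, and 13.9% were higher and 12.8% lower in the paired fit. The RNAs were not tested against each other. The immunoprecipitate libraries all lay above Input in 45.0% of GAPDH tiles and 31.0% of PPIA tiles. The values were 33.3% for JPX, 32.1% for WRAP53, 30.8% for SRA1, 28.7% for MBP and 26.9% for FIRRE. They were 20.6% for XIST and 9.77% for TSIX, and 17.1% for all tiles but GAPDH and PPIA.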

How the data were processed

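The 6 libraries are amplicon libraries of cDNA from HEK293T cells given the CTCF pool, 1 of 5 pools in the series (33 libraries in 11 groups); the other pools hold no GAPDH or PPIA tile and were not used. The authors deposited raw read counts per tile and barcode, per the file headers, and the values were whole numbers with differing totals. How reads were assigned to barcodes is not given in the sources used here. No molecular identifiers are recorded, so reads are not independent molecules and intervals cover counting error only. Columns were matched to samples by title, and 0 were left unmatched. Nothing in the labels says whether replicates are separate cultures, so the p-values rest on the variation among these libraries, which could be technical. Chi-square tests of tile counts within groups gave 257 to 4611 per degree of freedom, so no library was a copy of another of its group.

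For each tile the reads of its 24 barcodes were added up. All tiles were fitted together in edgeR 4.0.16 (R 4.3.3) with its quasi-likelihood F test and robust estimation, after filterByExpr and with TMM factors, and a Benjamini-Hochberg adjusted p under 0.05 was a call. The SE was obtained as the size of the log2 fold change over the root of F. Ratios within a pair are differences of log2 CPM with a prior count of 2. The unpaired fit was tested on simulated data with known changes, at a dispersion of 0.05 and without any displacement of a replicate. The paired fit was not tested in this way. Same-numbered libraries deviated together at r = 0.70, 0.68 and 0.29, all over 0.1, so the replicate numbers were taken as pairs; the labels give no source for the pairing. Immunoprecipitate replicate 3 correlated more with Input replicate 2 (0.57) than with Input replicate 3. Alternatives were RLE factors, library size only, TMM without the members, all tiles kept, tiles averaging 50 reads or more, DESeq2 1.42.0, the replicate block, libraries or pairs left out, and each tile without its most-read barcode.

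Every member is named. Full values are given for tiles called in either fit and for the 2 highest and 2 lowest of each mRNA, with the most and least abundant in Input and the highest and lowest run of 3. Single barcodes are given for the 4 tiles called in the unpaired fit, a narrowing made after the values were seen. The members and lists were chosen with earlier results of these data known. Gene symbols matched the RefSeq table for both mRNAs.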

Additional observations from a re-analysis of the deposited data

How the results depend on the processing

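With the replicate number as a block (replicate block), calls numbered 12 of 20 GAPDH tiles, 10 of 29 PPIA tiles and 270 tiles of the pool, against 1, 3 and 47 without it; DESeq2 called 7, 7 and 179. Library size as the only scaling gave 2 GAPDH tiles. Leaving out 1 library, or both of 1 replicate, gave 0 to 15 GAPDH calls, 0 to 17 PPIA calls and 0 to 452 calls in the pool without the block. With the block, a choice made after seeing the data that leaves little to estimate the spread, leaving out replicates 1, 2 and 3 gave 14, 5 and 0 GAPDH calls, 17, 6 and 0 PPIA calls and 474, 104 and 0 calls in the pool. Unpaired without both libraries of replicate 2 or 3, edgeR called 0 tiles, with 110 and 83 at an unadjusted p under 0.05. The median log2 fold change stayed above 0 throughout. Over fits without 1 library or replicate it ran from 0.30 to 0.87 for GAPDH and from 0.21 to 0.39 for PPIA. With the block the PPIA median was 0.32, and it was 0.37 without replicate 1 and 0.33 without replicate 3, where that of GAPDH was 0.59. The mean GAPDH share of reads was 0.703 percentage points above Input, and 0.742 without the 8 tiles of most reads. PPIA_23 ran from -2.36 without replicate 1 to 0.22 without replicate 3, and with the block from -2.76 without replicate 2 to 0.22 without replicate 3. The block changed the call of 18 of the 26 tiles given in full. Neither RLE factors, nor other count filters, nor TMM without the members, nor tiles without their most-read barcode changed a call among the 26. No single barcode was called with the block, with library size as the only scaling or with at least 100 reads; the other alternatives were not run on barcodes. The causes of these shifts were not tested. Reads were few in GAPDH_18, GAPDH_19, PPIA_18, PPIA_19 and PPIA_23, which limits what their ratios can show.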
